A study of Homo sapiens with 3 samples.

Results

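The TCEAL (transcription elongation factor A like) and BEX (brain expressed X-linked) genes are 1 family of small homologous proteins encoded close together on the X chromosome. The 10 genes TCEAL1, TCEAL3, TCEAL4, TCEAL7, TCEAL8, TCEAL9, BEX1, BEX2, BEX3 and BEX4 were examined here as members, taken by gene symbol from the 46427 genes of the deposited table. The family was chosen by the read counts of TCEAL8 and TCEAL9 in parental and paclitaxel-resistant cells, which were seen to be near 0 in the former and high in the latter, so those values are a description and not a finding. The 4 remaining genes of the family in RefSeq, TCEAL2, TCEAL5, TCEAL6 and BEX5, are given beside the members, which makes 14 family genes in all.

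RNA-seq was performed in MM468 (MDA-MB-468) cells, an epithelial line from a triple-negative breast cancer (TNBC), to compare the parental line with derivatives that had become resistant to chemotherapy. The 3 groups were parental MM468 cells without drug selection, adriamycin-resistant MM468 cells that survived adriamycin (an anthracycline, also called doxorubicin) at 10 to 140 nM, and paclitaxel-resistant MM468 cells that survived paclitaxel (a microtubule-stabilizing taxane) at 2 to 320 nM. All 3 were labelled wild type, were grown in the same medium with fetal bovine serum and kanamycin, and were represented by 1 library each. The labels do not say whether a resistant line was 1 clone or whether the drug was present at harvest. Because there were no replicates, no p-value or SD can be given, and every interval below is a 95% exact interval that covers counting error only. PCR copies of 1 molecule would make these intervals too narrow.

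TCEAL proteins carry a region that resembles transcription elongation factor TFIIS (encoded by the TCEA genes), which helps stalled RNA polymerase II resume, and several of them have been described as modulators of transcription. BEX proteins are short, largely disordered adaptor proteins that are abundant in brain. BEX3, also called NADE, and BEX1 bind the intracellular part of the neurotrophin receptor p75NTR, encoded by NGFR. BEX2 has been linked to NF-kappaB signalling and survival in breast cancer cells, BEX4 has been described as a tubulin-associated protein, and TCEAL7 has been described as a tumour suppressor that is silenced in ovarian cancer. TCEAL9 is also known as WBP5, a WW domain-binding protein. The family is found in placental mammals and grew by duplication, so its members share stretches of sequence in their coding exons and their promoters.

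The promoters are shown first because a shared 6-base word near the start of transcription is a sequence feature that the choice of members did not use. RefSeq promoter windows of GRCh38.p14 (300 bases, 250 before and 50 after each transcript start) were matched by symbol for 13 of the 14 family genes, and TCEAL7 is named only. Each line holds 30 bases, 5′ to 3′ on the gene's own strand, with the hexamer CACGTG, an E-box that reads the same on both strands, in capitals. The TCEAL9 line shows the aligned hexamer of TCEAL9.
TCEAL8: tgacgcgactctCACGTGaccaggagtcga
TCEAL9: tgacgtagatctCATGTGaccaggagtcga
BEX2: tgacaacagccaCACGTGatcggccaacac
TCEAL4: ggctgcggcattCACGTGatctgcacgggc
TCEAL3: tgacgcggcgctCACGTGacccgccgggcg
TCEAL1: acgcgcgtccctCACGTGaccaggagcctc
BEX1: acgcacggccctCACGTGaccgggagctgc
BEX3: acgcgcggccctCACGTGacccagagctgc
BEX4: tgacaacagcccCACGTGaccggccaacac
TCEAL2: tgacgcggtgctCACGTGacccgcccggcg
TCEAL5: tgacgtttttctCACGTGatctgaagccga
TCEAL6: tgacgcggtgctCACGTGagtgaccaggcg
Of the 13 family genes, 11 held CACGTG in a window, among them 8 of the 9 members with a window, compared with 8.77% of all 27305 genes in the table. Per window, the hexamer was in 66.7% of 18 family windows and in 7.26% of all 35116 windows. The longer word TCACGTGA, which contains the hexamer and also reads the same on both strands, was in 9 of the 13 family genes and in 1.18% of all genes. TCEAL9 differed from TCEAL8 by C3T within the hexamer, counted from 1 at its first base with the base of TCEAL8 first, and BEX5 held no copy of the hexamer. Counted from the transcript start, the hexamer began at position -31 in TCEAL8, -19 in BEX2, -10 in TCEAL4 and -80 in TCEAL3, and the aligned bases of TCEAL9 at -37. A match is a description of letters, and windows of homologous genes are not independent of one another.

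The 250 bases before the start are given for TCEAL8 and TCEAL9, the pair by whose counts the family was chosen, and for TCEAL4, the member with the highest level in each of them. TCEAL8 lies on the minus strand at chrX:103255156-103255405, TCEAL9 on the plus strand at chrX:103356256-103356505, and TCEAL4 on the plus strand at chrX:103585265-103585514, all in GRCh38.p14. The TCEAL4 gene itself begins at position 103576231, so its bases precede a transcript start that lies within the gene. Capitals mark the hexamer, or in TCEAL9 the bases aligned with it.
TCEAL8: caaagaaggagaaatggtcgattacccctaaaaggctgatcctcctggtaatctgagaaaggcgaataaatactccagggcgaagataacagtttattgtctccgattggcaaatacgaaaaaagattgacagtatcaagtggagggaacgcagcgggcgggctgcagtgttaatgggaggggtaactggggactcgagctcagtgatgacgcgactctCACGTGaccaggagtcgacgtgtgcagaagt
TCEAL9: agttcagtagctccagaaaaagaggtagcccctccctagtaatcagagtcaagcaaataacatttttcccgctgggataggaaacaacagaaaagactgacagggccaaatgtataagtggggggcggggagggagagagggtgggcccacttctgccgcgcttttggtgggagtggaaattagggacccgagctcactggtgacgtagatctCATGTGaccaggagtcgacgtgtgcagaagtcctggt
TCEAL4: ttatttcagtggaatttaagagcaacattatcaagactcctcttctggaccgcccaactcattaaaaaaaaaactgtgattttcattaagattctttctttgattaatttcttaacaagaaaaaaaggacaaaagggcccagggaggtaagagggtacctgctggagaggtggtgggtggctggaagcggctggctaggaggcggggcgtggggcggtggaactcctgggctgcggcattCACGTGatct
The promoter windows of TCEAL8 and TCEAL9 shared an unbroken run of 31 bases that begins within the marked hexamer. TCEAL5, which had 0 counts in all 3 libraries, shared 18 bases of the same run with each of them. The longest runs shared by other family genes were 45 bases between BEX2 and BEX4 and 43 bases between TCEAL3 and TCEAL6.

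The 3 libraries held 32704885 counts in parental, 47567927 in adriamycin-resistant and 43242628 in paclitaxel-resistant MM468 cells, and the 10 most counted genes took 6.72% to 8.41% of each. A gene with 0 counts may have had up to 3, which is 0.0917, 0.0631 and 0.0694 CPM (counts scaled to the library's total) respectively. The label of breast epithelial cells was checked against EPCAM, KRT7, KRT8, KRT18, KRT19, CDH1 and EGFR, and 7 of 7 had 10 or more counts in each library, with summed TPM (the deposited measure, scaled to transcript length and to the library) between 8669 and 9901. Counts were compared after TMM scaling of the 2 libraries concerned, over genes with 10 or more counts in 1 of them. Below, a gene is called higher or lower when its fitted change was at least 2-fold, which is a threshold of size and not a test. In bulk RNA, a change in the share of cells that express a gene cannot be told apart from a change in RNA per cell.

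Of the 10 members, 6 were counted in at least 1 library and 4 had 0 counts in every library. The counted members fell into a group present in all 3 lines, TCEAL4, TCEAL3 and TCEAL1, and a group with little or no signal in parental cells, TCEAL9, TCEAL8 and BEX2. In paclitaxel-resistant against parental cells, 3 members were higher, 0 were lower and 3 changed by less than 2-fold, beside 20.5% of all 19099 genes higher and 13.5% lower. In adriamycin-resistant against parental cells the numbers were again 3 higher and 0 lower, beside 10.9% and 11.4% of 17950 genes. In paclitaxel-resistant against adriamycin-resistant cells they were 3 and 0, beside 19.4% and 14% of 19327 genes. The members called higher were TCEAL8, TCEAL9 and BEX2 each time. Against parental cells these 3 passed the minimum of 10 counts only through the resistant library, so their number there is not read as a result. TCEAL8 and TCEAL9 were chosen by their high counts in paclitaxel-resistant cells, so the number between the resistant lines is not read as a result either. The comparisons with parental cells also share the parental library.

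**Figure D1:**
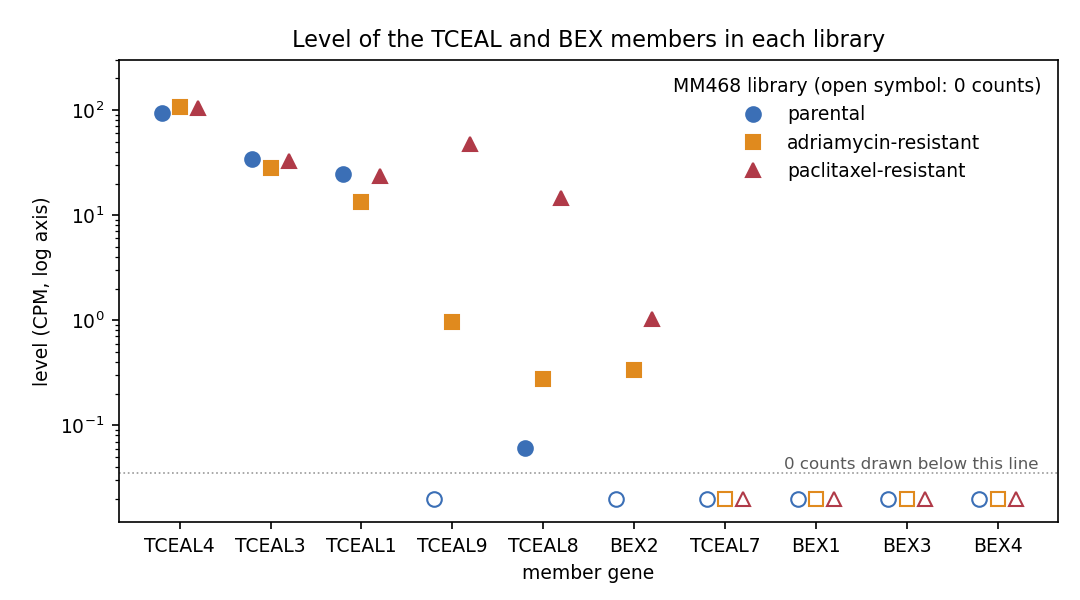
Level of each member in CPM (log axis) in the parental (circles), adriamycin-resistant (squares) and paclitaxel-resistant (triangles) libraries, 1 library each, with 0 counts as open symbols below the dotted line. TCEAL4, TCEAL3 and TCEAL1 lie close together across lines, TCEAL9 and TCEAL8 reach 47.9 and 14.7 CPM in paclitaxel-resistant cells, and TCEAL7, BEX1, BEX3 and BEX4 are at 0 throughout.

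TCEAL9 (Gene ID 51186, chrX:103356506-103358462 on the plus strand), the WW domain-binding member, had 0 counts in parental, 46 in adriamycin-resistant and 2072 in paclitaxel-resistant MM468 cells. Per length this was a TPM of 0, 2.02 and 113. Against the 3 counts that 0 allows, its level was at least 446-fold higher in paclitaxel-resistant and at least 10.4-fold higher in adriamycin-resistant than in parental cells. Between the resistant lines, where both counts are above 0, it was 41.7-fold higher in paclitaxel-resistant cells (interval 31.2 to 57.3). Among the 27652 genes with 3 or fewer parental counts, TCEAL9 ranked 1 by TPM in paclitaxel-resistant cells and 113 in adriamycin-resistant cells. Because the family was chosen by the parental and paclitaxel-resistant counts of this gene, its rank in paclitaxel-resistant cells is a description.

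TCEAL8 (Gene ID 90843, chrX:103252995-103255155 on the minus strand) had 2 counts in parental, 13 in adriamycin-resistant and 635 in paclitaxel-resistant MM468 cells, a TPM of 0.115, 0.474 and 29.8. The ratio of its normalised counts was 205 in paclitaxel-resistant against parental cells, with a wide interval of 56.6 to 1698 because the parental value rests on 2 counts. In adriamycin-resistant against parental cells the ratio was 4.42 (0.9998 to 40.3), so a difference was not detectable at this depth although the ratio passed 2-fold. Paclitaxel-resistant cells were 44.9-fold above adriamycin-resistant cells (26.3 to 85.6). By TPM, TCEAL8 ranked 6 among the genes with 3 or fewer parental counts in paclitaxel-resistant cells, which is likewise a description of values used in the choice.

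BEX2 (Gene ID 84707, chrX:103309346-103310990 on the minus strand), the member linked to NF-kappaB signalling in breast cancer cells, followed the same order at a far lower level, with 0 counts in parental, 16 in adriamycin-resistant and 44 in paclitaxel-resistant MM468 cells. Its TPM was 0, 0.737 and 2.76. The level was at least 9.48-fold higher in paclitaxel-resistant and at least 3.62-fold higher in adriamycin-resistant than in parental cells. It was 2.54-fold higher in paclitaxel-resistant than in adriamycin-resistant cells (1.41 to 4.84), a smaller step than the 41.7-fold of TCEAL9 and the 44.9-fold of TCEAL8. The intervals of BEX2 and of those genes do not overlap for that comparison. TCEAL8 and TCEAL9 were chosen by their high counts in paclitaxel-resistant cells, so their larger step is a description and not a result.

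TCEAL4, TCEAL3 and TCEAL1 lie next to one another within 54.723 kb and were well counted in every library. TCEAL4 (Gene ID 79921) had 3051, 5124 and 4504 counts in parental, adriamycin-resistant and paclitaxel-resistant MM468 cells, which is a CPM of 93.3, 107.7 and 104.2. On the log2 scale it changed by 0.19 in adriamycin-resistant cells (1.14-fold, 1.09 to 1.19) and by -0.068 in paclitaxel-resistant cells (0.954-fold, 0.911 to 0.999), the second of which was positive (0.16) with library size only and also positive on the FPKM and TPM scales. TCEAL4 therefore had no stable direction against parental cells there. Between the resistant lines it was 0.815-fold in paclitaxel-resistant cells (0.783 to 0.849), which turned positive (0.098 on the log2 scale) on the TPM scale.

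TCEAL3 (Gene ID 85012) had 1122, 1335 and 1421 counts in the same order, and its CPM was 34.3, 28.1 and 32.9. It was 0.818-fold of the parental level in paclitaxel-resistant cells (0.756 to 0.886) and 0.808-fold in adriamycin-resistant cells (0.746 to 0.876). The first of these turned slightly positive on the TPM scale (0.06 on the log2 scale), and the second stayed negative under each scaling tried. Between the resistant lines the ratio was 0.987 (0.916 to 1.06), which does not differ from 1 beyond counting error, and it was above 1 with library size only and on the FPKM and TPM scales.

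TCEAL1 (Gene ID 9338) had 803 counts in parental, 634 in adriamycin-resistant and 1011 in paclitaxel-resistant MM468 cells, or 24.6, 13.3 and 23.4 CPM. The adriamycin-resistant library was thus the low one of the 3. TCEAL1 was 1.86-fold lower there than in parental cells (1.68 to 2.07), the largest change among these 3 members and still under 2-fold. In paclitaxel-resistant cells it was 0.814-fold of the parental level (0.741 to 0.894), which turned slightly positive on the TPM scale (0.03 on the log2 scale), and it was 1.48-fold above adriamycin-resistant cells (1.34 to 1.64). The counting intervals of TCEAL1 and TCEAL3 in adriamycin-resistant against parental cells do not overlap, so these neighbouring genes differed in size of change beyond counting error.

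**Figure D2:**
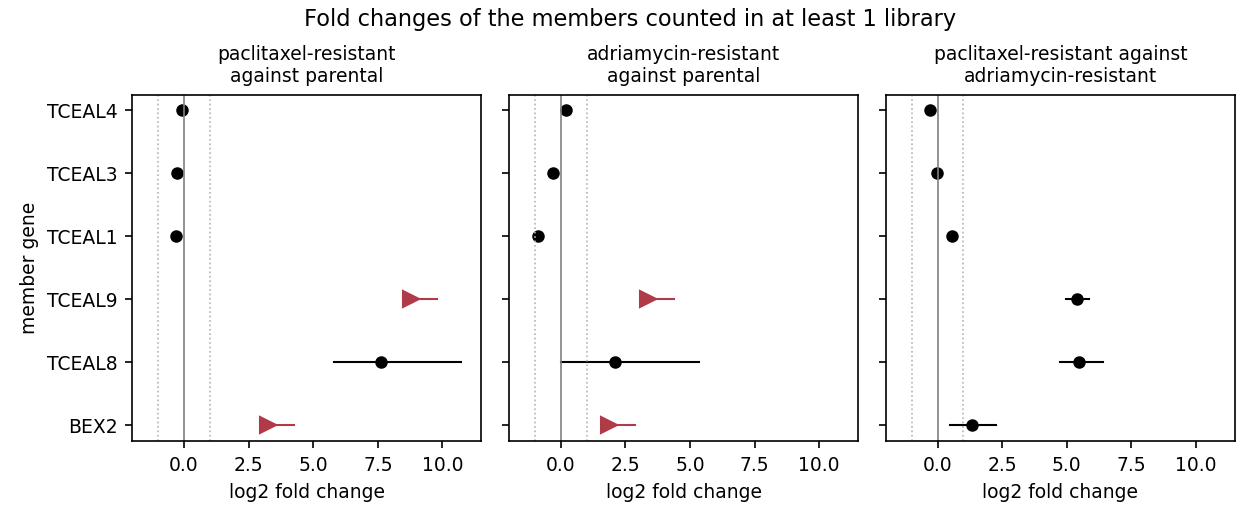
Log2 fold change of the 6 counted members in the 3 comparisons, with points and 95% exact counting intervals, or, where the reference library had 0 counts, a lower bound against 3 counts drawn as a right-pointing triangle. Dotted lines mark 2-fold, and TCEAL4, TCEAL3 and TCEAL1 lie between them while TCEAL9 and TCEAL8 stand at 41.7-fold and 44.9-fold between the resistant lines.

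The order of the members within a library was read on TPM. In parental cells it was TCEAL4 (157), TCEAL3 (70.1), TCEAL1 (45.4) and TCEAL8 (0.115). In adriamycin-resistant cells it was TCEAL4 (176), TCEAL3 (55.4), TCEAL1 (23.6), TCEAL9 (2.02), BEX2 (0.737) and TCEAL8 (0.474), of which BEX2 and TCEAL8 did not differ beyond counting error (0.421 to 1.20 and 0.252 to 0.810). In paclitaxel-resistant cells TCEAL9 (113) stood second after TCEAL4 (188), followed by TCEAL3 (73.0), TCEAL1 (46.4), TCEAL8 (29.8) and BEX2 (2.76), with no overlap of counting intervals between neighbours in that order.

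Summed over the members, TPM was 272.8 in parental, 258.2 in adriamycin-resistant and 453.2 in paclitaxel-resistant MM468 cells. TCEAL4, TCEAL3 and TCEAL1 made up 99.96%, 98.7% and 67.9% of these sums. TCEAL9 contributed 0%, 0.783% and 24.9%, and TCEAL8 0.0422%, 0.183% and 6.58%. The higher sum in paclitaxel-resistant cells was mostly TCEAL9 and TCEAL8, which is a description, because their high values there were used in the choice. TCEAL4, TCEAL3 and TCEAL1 together had a TPM of 272.7 in parental and 307.7 in paclitaxel-resistant cells. That rise depended on the scale. After TMM scaling of the counts they were 0.954-fold, 0.818-fold and 0.814-fold of the parental level there.

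**Figure D3:**
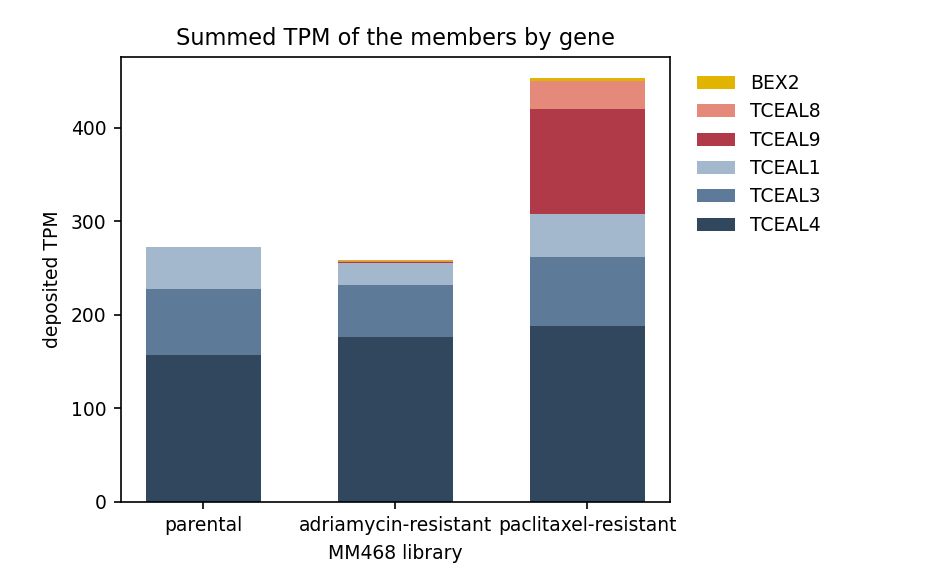
Deposited TPM of the members stacked by gene for each MM468 library, with 1 library per bar and no error bar. TCEAL4, TCEAL3 and TCEAL1 fill nearly the whole bar in parental and adriamycin-resistant cells, and TCEAL9 takes 24.9% of the paclitaxel-resistant bar.

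TCEAL7, BEX1, BEX3 and BEX4 had 0 counts in all 3 libraries. Each is therefore below 0.0917 CPM in parental, 0.0631 CPM in adriamycin-resistant and 0.0694 CPM in paclitaxel-resistant cells as far as counting can show. Of the 4 other family genes, TCEAL2, TCEAL5 and BEX5 also had 0 counts throughout, and TCEAL6 had 0, 4 and 0. The E-box word printed above was present in the windows of BEX1, BEX3, BEX4, TCEAL2 and TCEAL5, which had no counts, as well as in those of the well counted TCEAL4 and TCEAL3, whereas TCEAL9 lacked it and had 2072 counts in paclitaxel-resistant cells. Of the other counted members, TCEAL8, BEX2 and TCEAL1 held that word too, and the uncounted TCEAL7 had no window. The family genes with a window therefore did not separate into counted and uncounted by its presence. Any role of that word was not tested.

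Shared sequence could move reads between members. The 50-base words of each family gene's longest protein-coding GENCODE transcript were therefore compared with the transcripts of all other genes. Words found only in other transcripts of that family gene are not covered. TCEAL8, TCEAL9, TCEAL7 and BEX3 shared 0% of their words with another gene. The share was 2.92% for BEX2 (with BEX1 and BEX4), 1.38% for TCEAL4 (with TCEAL2) and 2.69% for TCEAL1 (with TCEAL3). It was 18.3% for TCEAL3 (with TCEAL5 and TCEAL6), and 29.5% for TCEAL6, whose 4 counts are uncertain for that reason. The annotated TCEAL3 gene overlaps TCEAL1 on the same strand in GENCODE, so reads in the overlap could be split between these genes.

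The members were then set among their neighbours on the X chromosome. The family genes lie between positions 102125679 (start of TCEAL2) and 103630953 (end of TCEAL1) of chromosome X in GRCh38.p14, a span of 1505.28 kb, and the members within 568.303 kb of it. TCEAL8, TCEAL5, BEX2, TCEAL7 and TCEAL9 are consecutive and take up 105.468 kb. Within that stretch TCEAL8, BEX2 and TCEAL9 were higher in paclitaxel-resistant cells, while TCEAL5 and TCEAL7, placed between them, had 0 counts. BEX4 and BEX3, the family genes on either side of the stretch, also had 0 counts.

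Around and between the 14 family genes, 33 other protein-coding genes were taken, with 10 beyond the family on either side, and 32 of them were in the table. Over all genes in paclitaxel-resistant against parental cells, 20.5% were higher and 13.5% lower, with a median log2 change of 0.07. Of the 32 neighbours, 16 passed the count minimum there, with 6 higher, 1 lower and a median of -0.04. The 6 were TMSB15A (thymosin beta 15A, an actin-binding peptide) with 4, 3 and 109 counts in parental, adriamycin-resistant and paclitaxel-resistant cells, GPRASP3 with 4, 46 and 115, NXF3 (a nuclear RNA export factor relative) with 0, 0 and 23, TMEM31 with 0, 3 and 34, SLC25A53 (a mitochondrial carrier) with 15, 40 and 80, and ZCCHC18 with 6, 9 and 204. TMSB15A was 17.2-fold higher (6.68 to 65.8), GPRASP3 18.2-fold (7.06 to 69.3), ZCCHC18 21.6-fold (9.92 to 60.6) and SLC25A53 3.43-fold (1.97 to 6.44). NXF3 was at least 4.95-fold and TMEM31 at least 7.32-fold higher. RAB40AL, with 13, 9 and 1 counts, was the lower one. The neighbouring genes called higher were low in parental cells as TCEAL8, TCEAL9 and BEX2 were, and none of them reached the TPM of TCEAL8. All of them but SLC25A53 passed the minimum of 10 counts only through the paclitaxel-resistant library, so their low parental counts are not read as a result.

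The other 9 neighbours that passed in that comparison changed by less than 2-fold. MORF4L2, a chromatin-associated gene beside TCEAL1, had 10906, 12999 and 14131 counts, GLA (alpha-galactosidase A) had 1188, 1314 and 1436, and ARMCX5 had 788, 1079 and 1055. The well counted genes farthest from 1 in paclitaxel-resistant against parental cells were the RPL36A-HNRNPH2 readthrough, which was 1.95-fold lower (1.64 to 2.32), HNRNPH2 (an RNA-binding protein), which was 1.60-fold lower (1.53 to 1.67), and RPL36A (a ribosomal protein), which was 1.37-fold lower (1.33 to 1.41). In adriamycin-resistant against parental cells 12 neighbours passed, with GPRASP3 higher and RAB40AL (13 against 9 counts, an interval that includes 1) lower. The median was -0.26. Over all genes 10.9% were higher and 11.4% lower, with a median of 0.02. In paclitaxel-resistant against adriamycin-resistant cells 15 neighbours passed, with 5 higher, 0 lower and a median of 0.57. Over all genes 19.4% were higher and 14% lower there, with a median of 0.04. With library size only, 7 neighbours were higher, beside 24.5% of all genes. Of the 33 neighbours, 11 had 0 counts in every library.

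**Figure D4:**
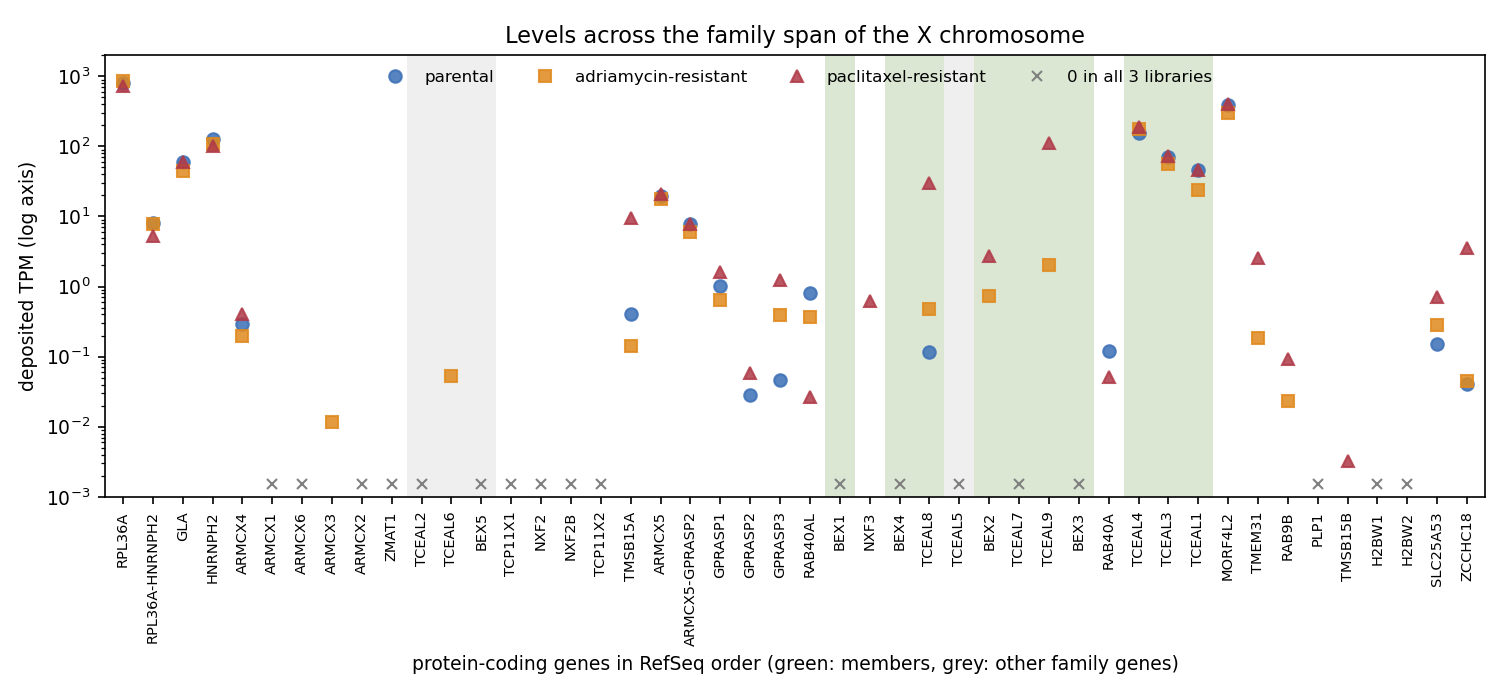
Deposited TPM (log axis) of 46 protein-coding genes in RefSeq order along the X chromosome, with the 10 members shaded green and the 4 other family genes grey, circles for parental, squares for adriamycin-resistant and triangles for paclitaxel-resistant cells. Crosses mark genes at 0 in all 3 libraries, a value of 0 in 1 or 2 libraries is not drawn, and TCEAL8 and TCEAL9 are separated by such genes.

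The ARMCX and GPRASP genes, which neighbour the family and are often described together with it, were also listed. Of the 9 genes, 4 passed the count minimum in each comparison and 1, GPRASP3, was higher each time. Over all genes, 20.5% were higher in paclitaxel-resistant and 10.9% in adriamycin-resistant against parental cells. In paclitaxel-resistant against adriamycin-resistant cells the share was 19.4%. GPRASP3 was 7.65-fold higher in adriamycin-resistant (2.85 to 29.9) and 18.2-fold higher in paclitaxel-resistant than in parental cells. Of the remaining 8, ARMCX1, ARMCX2 and ARMCX6 had 0 counts throughout.

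The genes whose pattern over the 3 libraries was most like that of TCEAL8 and of TCEAL9 were found among 19671 protein-coding genes by the Euclidean distance of log2(TPM + 0.1). Nearest to TCEAL8 was SERPINI1 (neuroserpin, a protease inhibitor of neurons), at a distance of 0.775, with a TPM of 0.213, 0.680 and 23.6 in parental, adriamycin-resistant and paclitaxel-resistant cells. TSPEAR followed at 0.923, and NELL2 (a secreted neural protein), CAMK2B (a subunit of calcium/calmodulin-dependent kinase) and ZNF385B lay at 1.53, 1.54 and 1.63. Nearest to TCEAL9 was MEIS3 (a homeobox factor), at 1.71, with a TPM of 0, 2.27 and 34.7. SLC2A3 (a glucose transporter) came next, and C4BPB, WWC2 and SDC2 (a syndecan) lay at 2.46, 2.50 and 2.73. SDC2 had 0 counts in parental, 19 in adriamycin-resistant and 5101 in paclitaxel-resistant cells, and WWC2 had 0, 2042 and 8686. No gene came as close to TCEAL9 as SERPINI1 did to TCEAL8, and with 1 library per line these distances are a description.

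Because BEX1 and BEX3 act at p75NTR, 17 genes of a list of neurotrophins, their receptors and p75NTR effectors were examined, although both members were at 0. The receptor gene NGFR itself was low, with 16, 37 and 21 counts in parental, adriamycin-resistant and paclitaxel-resistant cells. In paclitaxel-resistant against parental cells 20.5% of all genes were higher and 13.5% lower, with a median of 0.07. Of the 13 list genes that passed there, 2 were higher and 0 lower, with a median of -0.06. Both encode ligands. BDNF had 35, 327 and 882 counts and was 16.2-fold higher (11.6 to 23.5), and NTF4 had 17, 149 and 588 and was 22.2-fold higher (13.8 to 38.6). NTF3, NTRK3 and NDN had 0 counts in every library.

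In adriamycin-resistant against parental cells 13 genes of the list passed, with 3 higher, 2 lower and a median of 0.03. Over all genes 10.9% were higher and 11.4% lower, with a median of 0.02. BDNF was 6.33-fold higher (4.47 to 9.27) and NTF4 5.93-fold (3.60 to 10.5). MAGED1 (NRAGE), an adaptor of p75NTR, had 28, 1622 and 57 counts and was 39.2-fold higher (27.1 to 59.4) in adriamycin-resistant cells. Lower were NTRK2, the BDNF receptor, with 54, 6 and 48 counts, and SORT1 (sortilin), the co-receptor of p75NTR, with 16150, 8147 and 16641. BDNF and NTF4 thus had their values in the same order as TCEAL8, TCEAL9 and BEX2, lowest in parental and highest in paclitaxel-resistant cells, while MAGED1 was highest in adriamycin-resistant cells. Of the 13 list genes that passed in paclitaxel-resistant against adriamycin-resistant cells, 3 were higher (BDNF, NTF4 and NTRK2) and MAGED1 was lower. Their median was 0.15. Over all genes 19.4% were higher and 14% lower, with a median of 0.04.

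**Figure D5:**
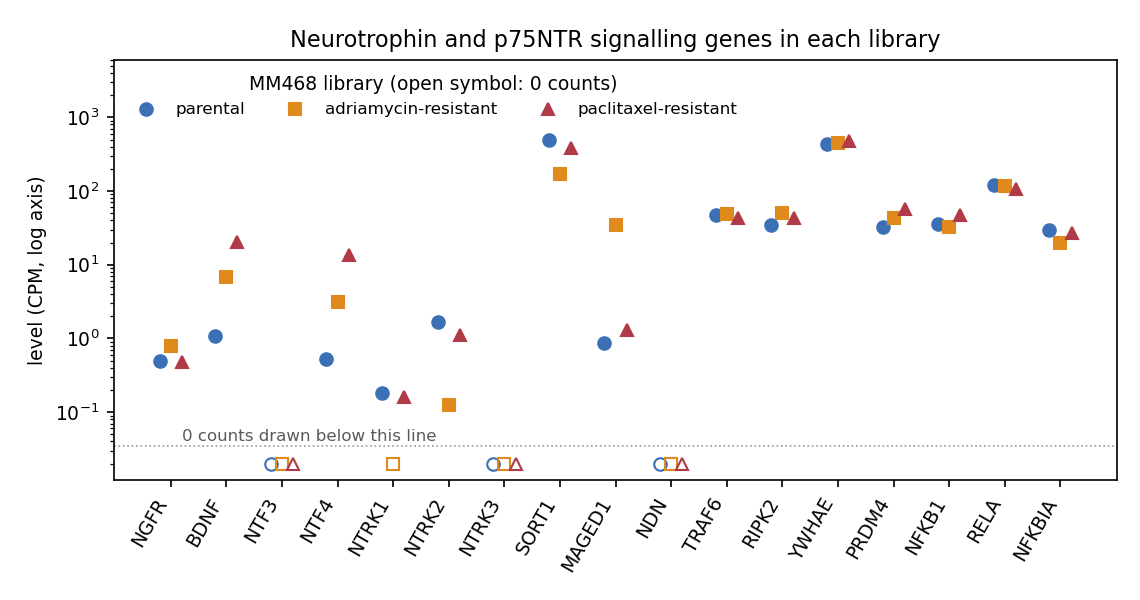
Level in CPM (log axis) of 17 neurotrophin and p75NTR signalling genes in the parental (circles), adriamycin-resistant (squares) and paclitaxel-resistant (triangles) libraries, 1 library each, with 0 counts as open symbols below the dotted line. BDNF and NTF4 step up from parental to adriamycin-resistant to paclitaxel-resistant cells, and MAGED1 is high in adriamycin-resistant cells.

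The TCEAL genes are named for their resemblance to elongation factor TFIIS, so 19 transcript elongation genes were listed, and all 19 passed the count minimum in each comparison. In paclitaxel-resistant against parental cells 0 were higher and 2 were lower, beside 20.5% and 13.5% of all genes. The median was -0.10 beside 0.07 over all genes. With library size only and on the TPM scale with a pseudocount of 0.1, the median turned to 0.12 and 0.15, beside 0.30 and 0.39 over all genes. In both of these settings 1 was higher and 2 were lower. The 2 were TCEA3, a TFIIS gene, with 275, 264 and 100 counts in parental, adriamycin-resistant and paclitaxel-resistant cells (4.25-fold lower, 3.37 to 5.41), and ELL3 with 370, 282 and 136 (4.21-fold lower, 3.45 to 5.16). TCEA1, the broadly expressed TFIIS gene, had 2645, 5370 and 5273 counts and was 1.29-fold of the parental level in paclitaxel-resistant cells (1.23 to 1.35). In adriamycin-resistant against parental cells 1 gene, TCEANC2, was lower (970, 588 and 1044 counts), beside 11.4% of all genes. The median was -0.01 beside 0.02. Between the resistant lines 4 genes were lower in paclitaxel-resistant cells (TCEA3, ELOB, ELL3 and SUPT4H1), beside 14% of all genes. The median was -0.04, and with library size only 1 was lower (TCEA3) and 1 was higher. CDK9, the kinase of the elongation factor P-TEFb, had 1065, 1561 and 2839 counts and was 1.72-fold of the parental level in paclitaxel-resistant cells (1.61 to 1.85).

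Markers of neurons, fibroblasts and leukocytes were examined beside these results. Of 8 neuronal markers, ELAVL4, STMN2 and GAP43 had 0 counts in every library, RBFOX3 had 0, 5 and 0 and SNAP25 0, 0 and 21. Their summed TPM was 48.7, 63.8 and 84.6 in parental, adriamycin-resistant and paclitaxel-resistant cells, nearly all of it from TUBB3 and MAP2. SNAP25 was at least 4.52-fold higher in paclitaxel-resistant than in parental cells. It was the 1 called higher of 4 neuronal markers that passed there, beside 20.5% of all genes. The median of the 4 was 0.72 beside 0.07 over all genes. MAP2, with 1043, 2446 and 3175 counts, was under 2-fold. With library size only and on the TPM scale with a pseudocount of 0.1, 2 neuronal markers were higher. Of 7 fibroblast markers, COL1A2, LUM and THY1 were at 0 throughout, and the summed TPM of 7.84, 13.3 and 7.92 was mostly COL1A1. Of the 3 fibroblast markers that passed in paclitaxel-resistant against parental cells, 2 were higher, as TCEAL8 and TCEAL9 were, beside 20.5% of all genes. Both markers passed the count minimum only through the paclitaxel-resistant library. COL3A1 had 2, 0 and 21 counts, a ratio of 6.79 (1.66 to 59.7), and DCN had 0, 0 and 14 and was at least 3.02-fold higher. The summed TPM of 4 leukocyte markers was 8.78, 13.9 and 2.95, mostly CD68, which had 206, 527 and 65 counts. PTPRC had 24, 0 and 44 counts and ITGAM 22, 12 and 37, so both were lowest in adriamycin-resistant cells. Against parental cells PTPRC was at least 11.8-fold lower there. Of the epithelial markers, KRT7 was 2.25-fold lower in paclitaxel-resistant than in parental cells (2.21 to 2.28). KRT19 was 2.32-fold lower in paclitaxel-resistant than in adriamycin-resistant cells (2.29 to 2.34). These calls depended on the scaling. With library size only and on the TPM scale with a pseudocount of 0.1, 0 epithelial markers were lower in either comparison. There 1 was higher in paclitaxel-resistant against parental cells. Any part of other cells in the values of the members was not tested.

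The scaling moved these comparisons as a whole. With library size only instead of TMM, the median over all genes in paclitaxel-resistant against parental cells went from 0.07 to 0.30 and the split of called genes from 20.5% higher and 13.5% lower to 24.8% and 10%. On the TPM scale with a pseudocount of 0.1 the split was 25.5% and 8.27%. In paclitaxel-resistant against adriamycin-resistant cells the median went from 0.04 to 0.28 and the split from 19.4% and 14% to 24.5% and 9.81%, and to 26.9% and 7.48% on the TPM scale. Changes of TCEAL9 and TCEAL8 in these comparisons are far beyond that shift. TCEAL1 in paclitaxel-resistant against adriamycin-resistant cells was 0.56 on the log2 scale and stayed positive, from 0.55 to 0.97, under the alternatives.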

How the data were processed

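RNA from parental, adriamycin-resistant and paclitaxel-resistant MM468 cells (1 library each) was made into TruSeq Stranded mRNA libraries, and sequencing and analysis were done by Macrogen Japan Corp. The submitters' processing notes name Trimmomatic 0.39, HISAT2 2.2.1, StringTie 2.2.1 and GRCh38, and how reads were counted is not given in the sources used here. The authors deposited whole-number read counts for 46427 genes, not normalized, together with FPKM and TPM values. The deposited FPKM and TPM may be sums over transcripts, in which case their length factor can differ between libraries. Labels tied each column to its line.

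TMM factors from edgeR 4.0.16 (R 4.3.3) scaled the counts over genes with 10 or more counts in 1 of the 2 libraries, with a prior count of 0.125. No test was made, because 1 library per line leaves no estimate of spread. Intervals of ratios are exact binomial (Clopper-Pearson) and those of single levels exact Poisson, at 95%, from scipy 1.17.1. A fold against 0 counts is a bound against 3 counts per library, and a ratio against 1 to 3 counts is given without the prior. Precision follows depth, from 32704885 to 47567927 counts per library. Positions and promoters are from RefSeq GRCh38.p14, and transcripts from GENCODE. The calculation was tested on simulated Poisson counts, with 200 genes changed by the same known folds in both resistant libraries. Far fewer genes changed there than in these data, and folds against 0 counts were not checked by it.

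The members and the lists were chosen with earlier results of these data known. Some list genes are not reported here, and the counts and medians of their lists are given without them. Named genes were all family genes, genes of the lists and the span that changed at least 2-fold in a comparison, and the 5 genes nearest in pattern to TCEAL8 and to TCEAL9. NGFR, TCEA1, CDK9, MORF4L2, GLA, ARMCX5, RPL36A, HNRNPH2, their readthrough, list genes at 0 and other marker genes are named outside this rule and were chosen after their values were seen. Alternatives were library size only, DESeq2 1.42.0 size factors, TMM on the 3 libraries, a prior count of 2, no count minimum or 100, a 4-fold threshold, and FPKM or TPM with a pseudocount of 1 or TPM with 0.1.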

Additional observations from a re-analysis of the deposited data

Results flagged for a closer look

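TCEAL4 is listed because its changes against parental MM468 cells had opposite signs in the resistant lines. Its log2 fold change was 0.19 in adriamycin-resistant and -0.068 in paclitaxel-resistant cells, with 1 library each, and this difference was not tested. The value in paclitaxel-resistant cells was 0.16 with library size only, 0.18 on the FPKM scale and 0.26 on the TPM scale, where the signs no longer differ.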

How the results depend on the processing

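With 1 library per line, no line could be left out and no replicate error can be given. No paired analysis was possible because each line had a single library. Of the members, 3 were higher and 0 lower in each comparison, and these numbers held within 1.5 times under the alternatives except the following. In adriamycin-resistant against parental cells, 0 were higher with a minimum of 100 counts, which TCEAL8, TCEAL9 and BEX2 do not reach there with 13, 46 and 16. In the same comparison 0 were higher on the FPKM scale with a pseudocount of 1, where TCEAL9 changed by 0.90 on the log2 scale, and 1 on the TPM scale with a pseudocount of 1, where it changed by 1.59. TCEAL9 had an FPKM of 0.872 and a TPM of 2.02 in adriamycin-resistant cells and 0 in parental cells, so a pseudocount of 1 was large beside these levels. When genes had to be counted in each of the 3 libraries, an alternative chosen after seeing the data, 1 was higher in paclitaxel-resistant against parental, 1 in adriamycin-resistant against parental and 1 in paclitaxel-resistant against adriamycin-resistant cells, because TCEAL9 and BEX2 have no parental count and are then not tested. Of 169 recomputed member values, 131 stayed within the counting interval of the reported value, 38 lay outside it and 0 of the called ones reversed, and 16 values under 2-fold, all of TCEAL1, TCEAL3 or TCEAL4, had the opposite sign. The depth leaves TCEAL8 in adriamycin-resistant against parental cells at 13 against 2 counts, and gives TCEAL9 and BEX2 against parental cells as bounds only.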
